A study of Mus musculus with 6 samples.

Results

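Fatty acid oxidation in mitochondria and peroxisomes was followed through the messenger RNA of 39 genes, taken by symbol from a list of carnitine transferases, beta-oxidation enzymes, electron carriers, peroxisomal transporters and peroxisomal import factors. They are 39 of the 22322 genes in the table, and 22 were placed with mitochondria and 17 with peroxisomes. The RNA came from epididymal white fat in 3 CD44 KO and 3 wild type mouse libraries, all after 17 weeks of high fat diet, so that no lean animals enter the comparison. CD44 binds hyaluronan at the cell surface. No source used here gives the strain, the age or how the knockout was made. The labels do not say that each library is a separate animal, so the p-values measure the spread between these libraries.

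Beta-oxidation shortens fatty acids by repeated rounds of dehydrogenation, hydration, a further oxidation and thiolysis. Mitochondria take up long-chain fatty acids as carnitine esters, and malonyl-CoA inhibits that entry at carnitine palmitoyltransferase 1. Peroxisomes handle very long, branched and otherwise awkward chains and pass the shortened products on. White adipocytes mainly store and release fatty acids, while brown and beige adipocytes burn them.

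In short, the genes of the pathway did not move as a block. Of the 38 members tested, edgeR called 0 higher and 1 lower in CD44 KO fat, where 1.74% of all 13829 genes tested were called higher and 0.882% lower. The 1 was Cpt1b, and its call did not hold when its reads were counted together with those of an overlapping gene model. That model also spans a neighbouring gene, so the joint count cannot settle the change of Cpt1b alone. The 22 mitochondrial members had a median log2 fold change of 0.22 (13 positive, 9 negative), and the 16 tested peroxisomal members 0.24 (14 positive, 2 negative), against 0.03 over all genes tested. The mitochondrial median was 0.04 without the members also found in peroxisomes, -0.0082 when wild type replicate 2 was left out and 0.51 when wild type replicate 1 was. Leaving out CD44 KO replicate 3 gave 0.065, and leaving out CD44 KO replicate 2 gave 0.36. The peroxisomal median was 0.10 in limma on log2(FPKM + 1), 0.15 with the replicate block and 0.42 when CD44 KO replicate 1 was left out. At an unadjusted edgeR p under 0.05, 6 mitochondrial members were higher and 3 lower and 4 peroxisomal members were higher and 0 lower, where 16.3% of all genes were higher and 14.7% lower. DESeq2 called 2 mitochondrial members higher and 3 lower and 4 peroxisomal members higher and 0 lower, where it called 10.7% of genes in each direction.

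**Figure D1:**
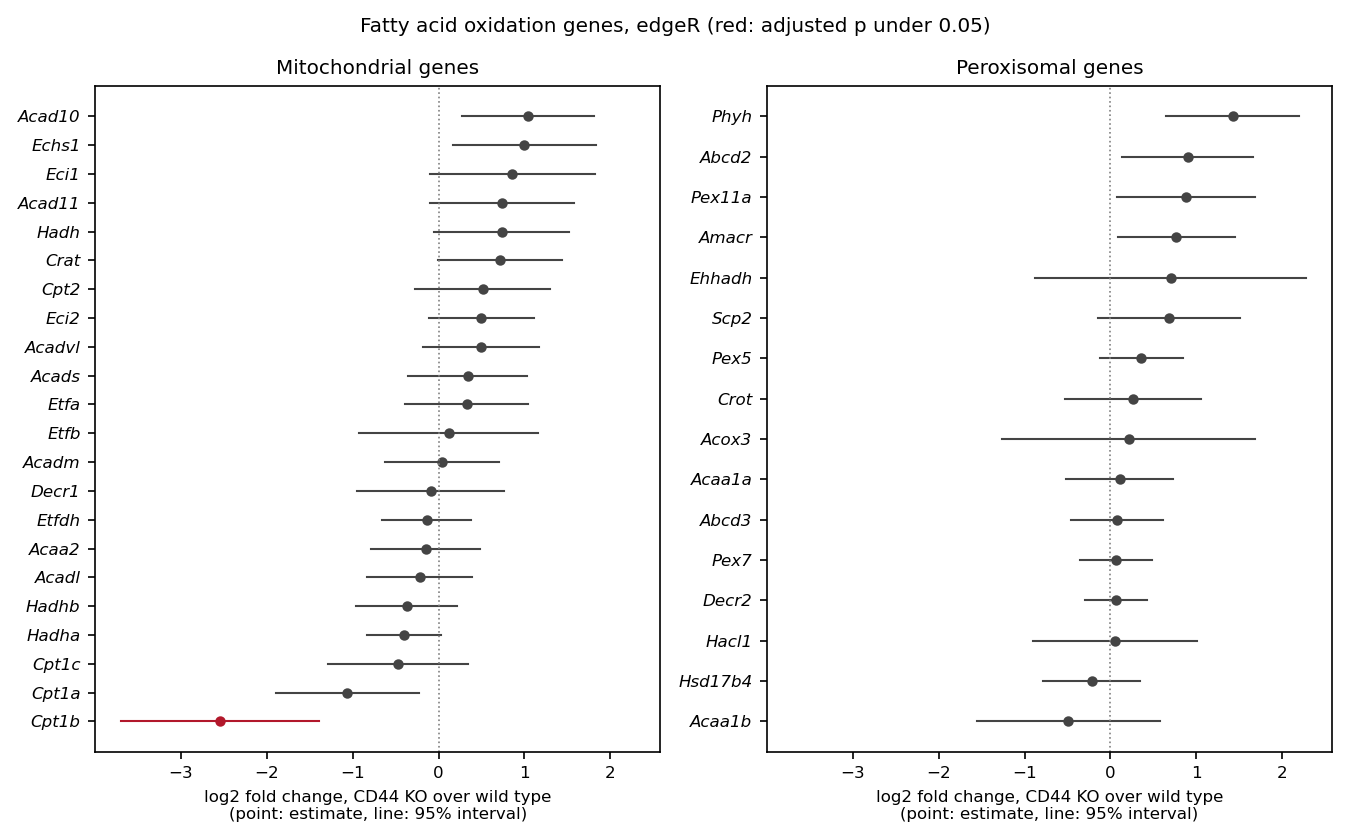
Log2 fold changes of CD44 KO over wild type for the 38 tested genes (x axis), sorted within mitochondrial (left) and peroxisomal (right) genes, with points for edgeR estimates and lines for 95% intervals. Cpt1b at -2.55 is the 1 gene past the adjusted threshold, and most other intervals cross 0.

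The libraries differed in ways that bear on every member. Cd44 stood at 1.66, 3.00 and 2.20 CPM (counts scaled to the library total) in CD44 KO replicates 1 to 3, against 182, 570 and 313 CPM in wild type replicates 1 to 3. All 12 mature adipocyte markers had counts in every library, and their summed level was 45422 to 70969 CPM in CD44 KO and 12629 to 37523 CPM in wild type. Much of that sum was Fabp4 (11521 to 17739 CPM in CD44 KO, 5042 to 13400 CPM in wild type) and Car3 (13518 to 19582 and 1888 to 8388 CPM). Of the 12 log2 fold changes 11 were positive, and that of Lep was negative (-1.75). All 15 macrophage markers were also found in every library, at 325 to 4836 CPM in CD44 KO and 4707 to 9939 CPM in wild type, and CD44 KO replicate 1 and wild type replicate 1 were alike at 4836 and 4707 CPM. The 11 epididymis markers summed to 11202 CPM in CD44 KO replicate 2, 13.7 and 6.80 CPM in CD44 KO replicates 1 and 3, and 1.08 to 1.46 CPM in wild type, with 2 to 7 of them at 0 in CD44 KO libraries and 7 or 8 in wild type libraries. Total expected counts were 15543317 to 18765009 per library. In bulk tissue, fewer cells of a type and less RNA per cell cannot be told apart.

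Wild type replicate 2 was the lowest of the 6 libraries for 27 of the 38 tested members, and it also had the lowest adipocyte sum (12629 CPM) and the highest macrophage sum (9939 CPM). CD44 KO replicate 3, with the highest adipocyte sum (70969 CPM), was the highest of the 6 for 18 members. Centred on each gene's own mean of the 6 libraries, log2 CPM averaged over the mitochondrial members was 0.04, -0.09 and 0.21 in CD44 KO replicates 1 to 3, against 0.26, -0.42 and -0.0044 in wild type replicates 1 to 3. For the peroxisomal members it was 0.02, 0.25 and 0.30 in CD44 KO, against 0.17, -0.52 and -0.21 in wild type. The genotypes overlapped in both means. For the mitochondrial members wild type replicate 1 had the highest mean, while the median in place of the mean was highest in CD44 KO replicate 3, at 0.33 against 0.21 in wild type replicate 1. The part of adipocyte and macrophage content in these differences was not tested.

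**Figure D2:**
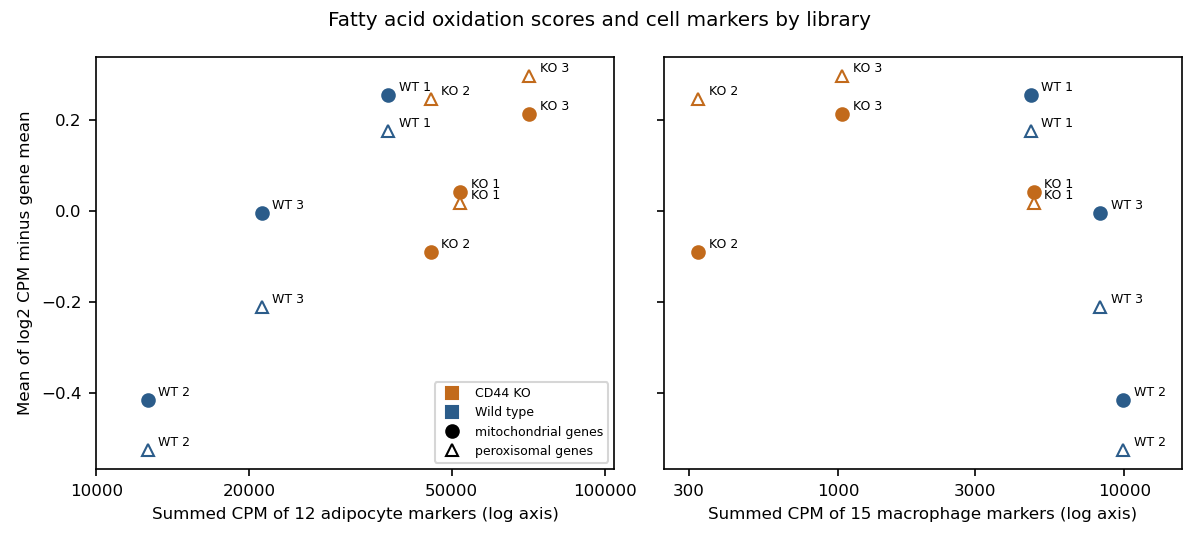
Mean of gene-centred log2 CPM for the mitochondrial (circles) and peroxisomal (triangles) members, plotted for each library against the summed CPM of 12 adipocyte markers (left, log axis) and of 15 macrophage markers (right, log axis). Wild type replicate 2 lies lowest in both means, at the lowest adipocyte sum and the highest macrophage sum.

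**Figure D3:**
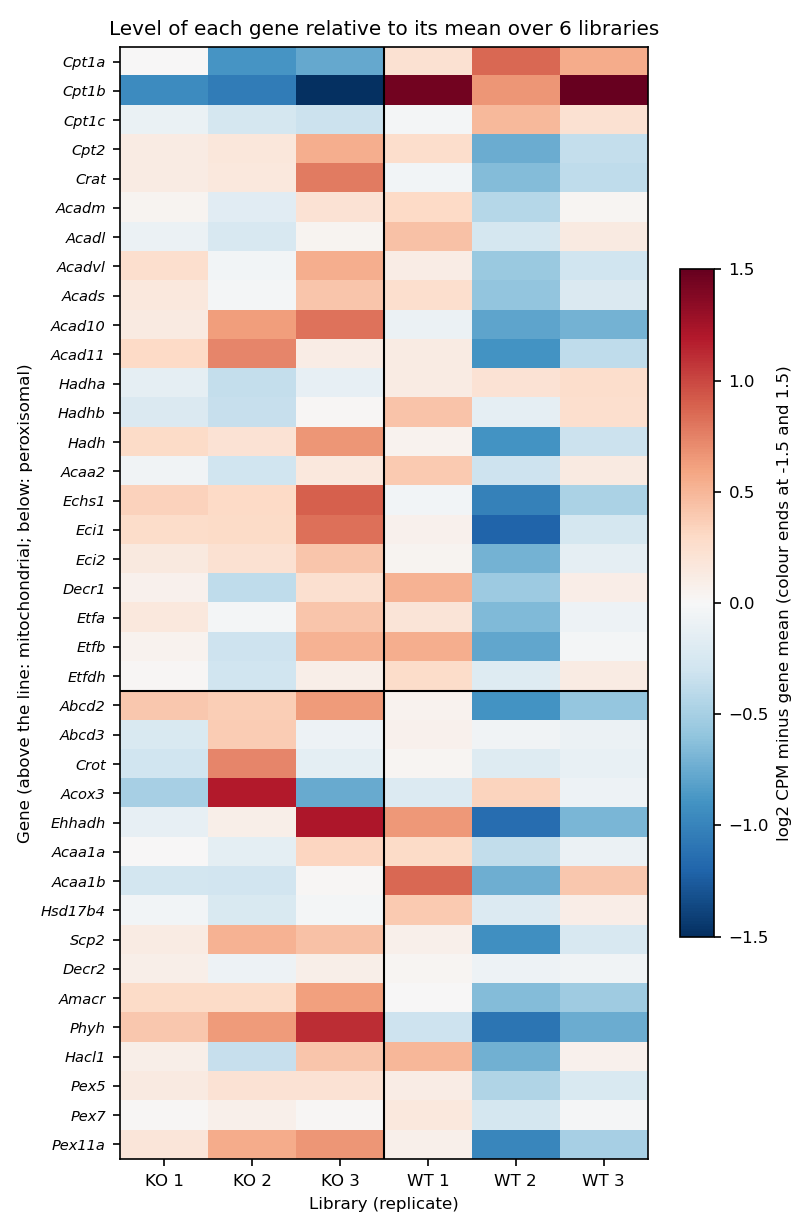
Level of each tested gene in each library (CD44 KO left of the line, wild type right) as log2 CPM minus the gene's mean over the 6 libraries, with mitochondrial genes above the line and peroxisomal genes below it. The column of wild type replicate 2 is blue for most genes, and the Cpt1a, Cpt1b and Hadha rows run the other way.

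Cpt1b and Cpt1a, at entry into mitochondria, had the lowest log2 fold changes of the members, and the peroxisomal gene Acaa1b came next (-0.49). Cpt2 and Crat, of the same carnitine system, had positive ones. Each of the 3 genes for carnitine palmitoyltransferase 1 had all CD44 KO libraries below all wild type libraries, as did 18.1% of all genes tested. Cpt1a (ENSMUSG00000024900, plus strand of chromosome 19, 3322334 to 3385733 in GRCm38) encodes the liver-type enzyme, and it stood at 188, 102 and 110 CPM in CD44 KO, against 219, 341 and 275 CPM in wild type. Its log2 fold change was -1.07 (edgeR adjusted p 0.0887, SE 0.30), a level 2.09 times lower in CD44 KO that did not pass over all genes. CD44 KO replicate 1 lay close to wild type replicate 1, and without CD44 KO replicate 1 edgeR called Cpt1a lower (-1.40, adjusted p 0.0267), in a fit that called 7.13% of genes higher and 9.65% lower. Macrophage markers moved with Cpt1a: wild type replicate 2, the highest library for Cpt1a, also had the highest macrophage sum, and their part in its difference was not tested.

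Cpt1b (ENSMUSG00000078937, minus strand of chromosome 15, 89416405 to 89425863) encodes the muscle-type enzyme, which brown adipocytes also use. It stood at 1.54, 1.44 and 0.842 CPM in CD44 KO, against 8.08, 4.69 and 9.71 CPM in wild type, from 13.1 to 26.4 expected counts per CD44 KO library and 86.6 to 186 per wild type library. All 3 CD44 KO libraries were low and the groups did not overlap. Cpt1b fell by 2.55 on the log2 scale (edgeR adjusted p 0.0402, SE 0.42), a level 5.84 times lower with a 95% interval of 2.62 to 13.0. The call held without CD44 KO replicate 1 (adjusted p 0.0264) and was lost without any other single library, with edgeR adjusted p between 0.0665 and 0.236 there, and log2 fold changes between -2.79 and -2.32 over all 6 such fits.

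Cpt1b shares its exons with Gm44502, a gene model on the same strand that reads through from the choline kinase gene Chkb. Of the 3372 exon bases of Cpt1b in GENCODE M21, 2744 (81.4%) also belong to Gm44502, so the authors' counting had to split most of these reads between both models. Gm44502 stood at 4.69, 5.95 and 4.66 CPM in CD44 KO, against 7.72, 1.40 and 4.64 CPM in wild type, with a log2 fold change of 0.15 (edgeR adjusted p 0.874). Summed over both models, the level was 6.23, 7.39 and 5.50 CPM in CD44 KO, against 15.9, 6.03 and 14.3 CPM in wild type. The sum overlapped between the genotypes, because wild type replicate 2 lay within the CD44 KO range, and its log2 fold change was -0.92 (edgeR adjusted p 0.161, SE 0.38), a test chosen after the overlap was seen. Chkb itself had a log2 fold change of 0.06 (edgeR adjusted p 0.853). Gm44502 (89416405 to 89429696) also reaches across most of Chkb (89426360 to 89429908), so the sum can hold reads from Chkb. Their share was not measured, so the sum cannot settle whether Cpt1b alone differed. Markers of other cells that use Cpt1b stood at differing levels, and some with few counts are given first. Ucp1, the uncoupling protein of brown fat, had 1, 0 and 0 counts in CD44 KO, against 9, 10 and 12 in wild type, and the muscle creatine kinase gene Ckm had 0 to 4 counts in CD44 KO libraries and 0 to 3 in wild type libraries. The 9 thermogenic markers summed to 25.7 to 33.7 CPM in CD44 KO and 33.9 to 74.4 CPM in wild type, with 1 to 4 of them at 0 in a CD44 KO library and 1 in each wild type library, and the brown fat marker Zic1 was at 0 in all 6. Of the 7 thermogenic markers tested 0 were called and 6 had negative log2 fold changes, as had 6610 of all 13829 genes tested. The 3 tested markers whose groups did not overlap were lower in CD44 KO, as were 18.1% of all genes tested and Cpt1b. They are named after their values were seen: Elovl3 (-4.29), Dio2 (-2.91) and Kcnk3 (-0.92), with edgeR adjusted p of 0.0594, 0.158 and 0.127. Kcnk3, the most abundant of the list, stood at 12.6 to 18.9 CPM in CD44 KO and 19.0 to 43.6 CPM in wild type. The 11 muscle markers summed to 22.8 to 32.4 CPM in CD44 KO and 8.08 to 46.0 CPM in wild type, with 1 to 3 at 0 in CD44 KO libraries and 1 to 4 in wild type libraries. Most of that sum was Acta1, also named after its values were seen, at 17.3 to 30.2 CPM in CD44 KO and 6.73 to 42.9 CPM in wild type. The part of these cells in the Cpt1b difference was not tested.

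Per transcript length, Cpt1a was the main form in both genotypes, at 30.5 ± 11.8 FPKM in CD44 KO and 65.3 ± 13.7 FPKM in wild type (SD, n = 3 each). Cpt1b stood at 0.433 ± 0.132 FPKM in CD44 KO and 2.67 ± 0.941 FPKM in wild type. Cpt1c, the brain form with little transferase activity, stood at 0.987 ± 0.116 FPKM in CD44 KO and 1.39 ± 0.230 FPKM in wild type, with a log2 fold change of -0.47 (edgeR adjusted p 0.302). Cpt2, the inner membrane transferase that returns the chain to CoA, stood at 122, 125 and 163 CPM in CD44 KO, against 133, 66.5 and 87.0 CPM in wild type (log2 fold change 0.52, edgeR adjusted p 0.25). Crat, which makes acetylcarnitine, stood at 307, 314 and 480 CPM in CD44 KO, against 274, 179 and 216 CPM in wild type (log2 fold change 0.72, edgeR adjusted p 0.129). Groups did not overlap for Crat and did for Cpt2.

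**Figure D4:**
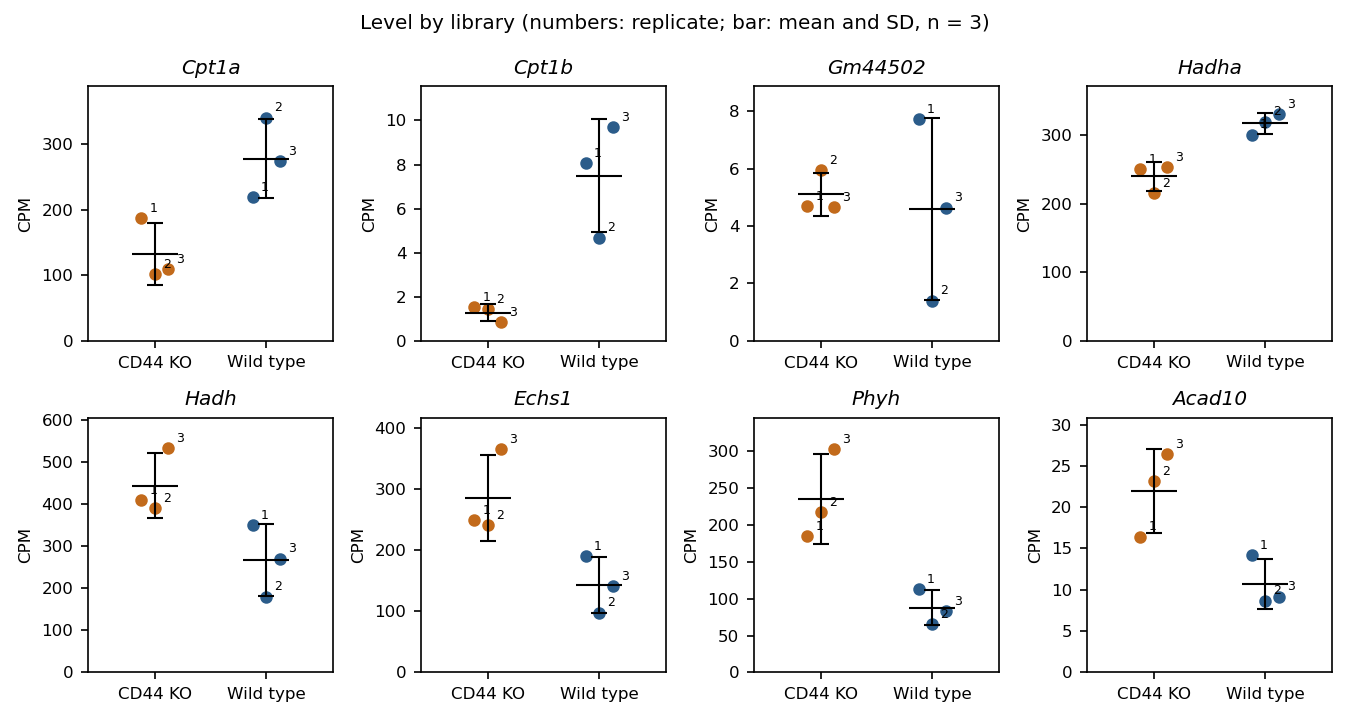
CPM in each library (points, numbered by replicate) with the mean and SD of 3 libraries, CD44 KO left and wild type right, for 7 members and the readthrough model Gm44502. Cpt1a, Cpt1b and Hadha lie lower in CD44 KO and Hadh, Echs1, Phyh and Acad10 higher without overlap, while Gm44502 overlaps between the genotypes.

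The acyl-CoA dehydrogenases, which open each round, had a median log2 fold change of 0.41 with 0 of 6 called. Acadm, Acads and Acadvl, for medium, short and very long chains, had log2 fold changes of 0.04, 0.34 and 0.49, and Acadl, for long chains, had -0.22. All 4 of them overlapped between the genotypes, with edgeR adjusted p of 0.922, 0.377, 0.212 and 0.51. Acad10 (ENSMUSG00000029456, chromosome 5, 121621026 to 121660514), a family member whose enzyme is less well known, stood at 16.4, 23.1 and 26.4 CPM in CD44 KO, against 14.2, 8.67 and 9.18 CPM in wild type. That was a log2 fold change of 1.04 (edgeR adjusted p 0.0816, SE 0.28), with no overlap, and without CD44 KO replicate 1 edgeR called it higher (1.21, adjusted p 0.0372). Acad11, which takes longer chains, had 0.74 (edgeR adjusted p 0.156), and its highest value, 228 CPM, was in CD44 KO replicate 2, the library with epididymis transcripts.

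Of the downstream enzymes, Hadha and Hadhb encode the subunits of the trifunctional protein, which hydrates, oxidises and cleaves long chains at the inner membrane. Hadha stood at 251, 216 and 254 CPM in CD44 KO, against 301, 320 and 331 CPM in wild type, and Hadhb at 295, 271 and 349 CPM in CD44 KO, against 460, 313 and 410 CPM in wild type. The genotypes did not overlap for Hadha and did for Hadhb. Their log2 fold changes were -0.40 (SE 0.15) and -0.37 (SE 0.21), with edgeR adjusted p of 0.141 and 0.263.

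The 5 genes of hydration, the second oxidation and thiolysis had 2 positive and 3 negative log2 fold changes, with a median of -0.15 and 0 called. Echs1 (ENSMUSG00000025465, chromosome 7, 140105710 to 140116476), the short-chain enoyl-CoA hydratase that also serves valine breakdown, stood at 249, 241 and 365 CPM in CD44 KO, against 190, 97.5 and 141 CPM in wild type. Its log2 fold change was 1.00 (edgeR adjusted p 0.0983, SE 0.30), with no overlap and CD44 KO replicate 3 well above the other libraries. Hadh, the 3-hydroxyacyl-CoA dehydrogenase of medium and short chains, stood at 409, 390 and 533 CPM in CD44 KO, against 350, 180 and 270 CPM in wild type (log2 fold change 0.73, SE 0.28, edgeR adjusted p 0.141). Acaa2, the thiolase that ends the round, had -0.15 (edgeR adjusted p 0.67) and overlapped. Echs1 shares 142 exon bases (1.71%) with Paox on the opposite strand, and Acadvl shares 1151 (42.9%) with Dvl2, which had 156 to 263 expected counts per library against 2374 to 4237 for Acadvl. No source used here says whether the counting used strand.

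Ratios of 2 members within a library cancel the library's scale. The ratio of Acadl to Acadvl was 1.17, 1.28 and 1.04 in CD44 KO, against 1.84, 1.81 and 1.99 in wild type. The ratio of Hadha to Hadh was 0.614, 0.553 and 0.476 in CD44 KO, against 0.86, 1.78 and 1.22 in wild type, and that of Cpt1a to Cpt2 was 1.54, 0.812 and 0.673 in CD44 KO, against 1.65, 5.13 and 3.16 in wild type. None of these 3 ratios overlapped between the genotypes, while the other 2 of the 5 computed did. Hadha was lower and Hadh higher in every CD44 KO library, so their ratio could not overlap and adds nothing to the single genes. Cpt1a also did not overlap by itself. Hadhb to Hadha was 1.18 to 1.37 in CD44 KO and 0.976 to 1.53 in wild type, and Acaa1b to Acaa1a was 0.542 to 0.611 in CD44 KO and 0.525 to 0.999 in wild type. The ratio of Acadl to Acadvl averaged 1.16 ± 0.121 in CD44 KO and 1.88 ± 0.0984 in wild type (SD, n = 3 each). The pairs were picked after the values were seen and are given as a description, and they were not set against other gene pairs.

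**Figure D5:**
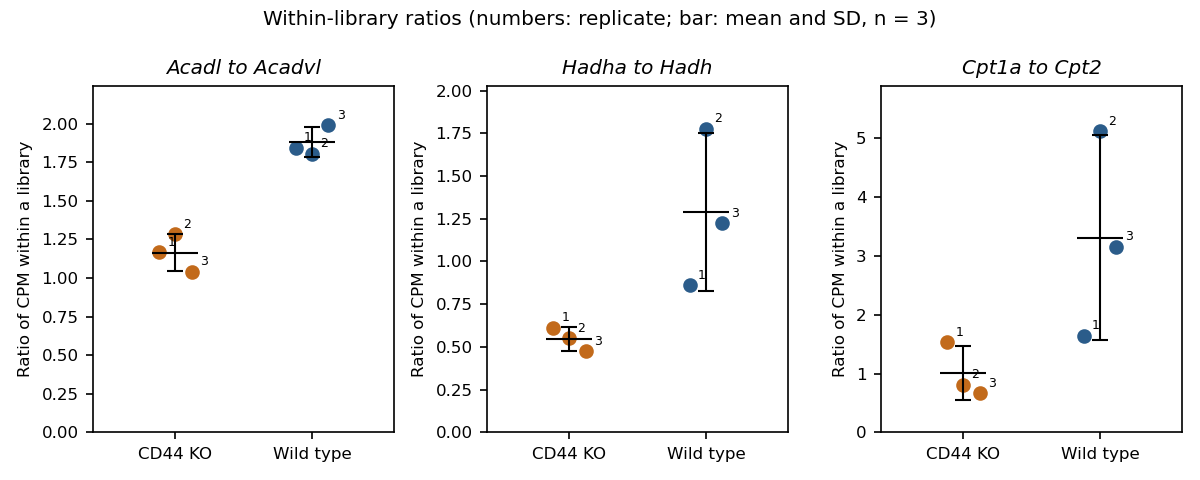
Ratio of CPM of 2 genes within each library (points, numbered by replicate) with the mean and SD of 3 libraries, CD44 KO left and wild type right. The Acadl to Acadvl ratio runs from 1.04 to 1.28 in CD44 KO and from 1.81 to 1.99 in wild type, and the other 2 ratios also lie lower in CD44 KO without overlap.

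Enzymes that move or reduce double bonds and the electron carriers were not called. Eci1 and Eci2, the isomerases for unsaturated chains, had 0.86 and 0.50 as log2 fold changes (edgeR adjusted p 0.153 and 0.18) and did not overlap between the genotypes. Decr1, the mitochondrial dienoyl-CoA reductase, had -0.09 (edgeR adjusted p 0.858). Etfa and Etfb, the subunits of the flavoprotein that collects electrons from the dehydrogenases, had 0.33 and 0.12, and Etfdh, which passes them to ubiquinone, had -0.14, with edgeR adjusted p of 0.406, 0.853 and 0.622. All 3 electron carrier genes overlapped. Per transcript length Etfb was the most abundant mitochondrial member, at 268 ± 79.6 FPKM in CD44 KO and 251 ± 109 FPKM in wild type. Etfb shares 617 exon bases (53.0%) with Gm45233 on the same strand, which had 1.38 to 8.75 expected counts per library.

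Among the peroxisomal genes the highest fold change belonged to Phyh (ENSMUSG00000026664, plus strand of chromosome 2, 4919019 to 4938730), the phytanoyl-CoA hydroxylase that starts alpha-oxidation of branched chains. It stood at 185, 218 and 302 CPM in CD44 KO, against 113, 65.8 and 83.6 CPM in wild type. All CD44 KO libraries were above all wild type libraries, and the log2 fold change of 1.43 (SE 0.28), or 2.69 times higher with a 95% interval of 1.57 to 4.60, missed the threshold over all genes (edgeR adjusted p 0.0529). DESeq2 called it higher (adjusted p 9.65e-05). Over the edgeR fits that each left out 1 library its log2 fold change was 1.20 to 1.66, with adjusted p from 0.0268 to 0.26. Hacl1, the lyase of the next step of alpha-oxidation, had 0.05 (edgeR adjusted p 0.93) and overlapped. Amacr, the racemase that prepares branched chains for beta-oxidation, stood at 11.99, 11.95 and 15.02 CPM in CD44 KO, against 9.85, 6.25 and 6.78 CPM in wild type (log2 fold change 0.77, edgeR adjusted p 0.105).

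The transporters and import factors had positive log2 fold changes, with 0 called. Abcd2, which carries very long-chain acyl-CoA into peroxisomes, stood at 550, 537 and 648 CPM in CD44 KO, against 429, 223 and 278 CPM in wild type (log2 fold change 0.90, SE 0.28, edgeR adjusted p 0.102). Its groups did not overlap, while Abcd3, the membrane protein for branched chains, had 0.07 and overlapped. Pex11a, which promotes peroxisome division, stood at 35.3, 45.5 and 49.0 CPM in CD44 KO, against 32.8, 15.7 and 22.02 CPM in wild type (log2 fold change 0.88, edgeR adjusted p 0.112). The import receptors Pex5 and Pex7 had 0.36 and 0.06 (edgeR adjusted p 0.206 and 0.794), and the groups did not overlap for Pex5.

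The peroxisomal beta-oxidation enzymes spread around 0. Scp2, the sterol carrier and thiolase gene, was the most abundant member per transcript length, at 865 ± 72.6 FPKM in CD44 KO and 550 ± 175 FPKM in wild type, with no overlap in CPM (log2 fold change 0.68, edgeR adjusted p 0.175). Ehhadh, the bifunctional enzyme, stood at 38.998, 45.3 and 98.7 CPM in CD44 KO, against 66.9, 19.2 and 26.5 CPM in wild type, so that both groups spread widely (log2 fold change 0.70, edgeR adjusted p 0.421). Hsd17b4, the other bifunctional enzyme, had -0.22 (edgeR adjusted p 0.482). The thiolase genes Acaa1a and Acaa1b are close paralogs whose reads the counting could split, and they had 0.11 and -0.49 (edgeR adjusted p 0.767 and 0.401). Decr2, the peroxisomal reductase, had the smallest SE of the members (0.13), at 24.8 to 27.8 CPM in CD44 KO and 24.8 to 26.8 CPM in wild type, with a log2 fold change of 0.06 (95% interval -0.30 to 0.42). Acox2, an oxidase for branched chains and bile acid side chains, was the 1 member below the count filter, with 5, 5 and 6 counts in CD44 KO, against 4, 0 and 1 in wild type.

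Acox3, the oxidase of branched chains, and Crot, which makes medium-chain carnitine esters for export, were high in CD44 KO replicate 2. Acox3 stood at 60.0, 192 and 50.2 CPM in CD44 KO, against 73.6, 107 and 80.5 CPM in wild type, and Crot at 46.2, 94.1 and 51.5 CPM in CD44 KO, against 57.8, 49.7 and 52.5 CPM in wild type. Without CD44 KO replicate 2, the library with 11202 CPM of epididymis markers, their log2 fold changes were -0.66 and -0.13, against 0.21 and 0.26 with all libraries. That library was the highest of the 6 for 5 members, Acad11, Abcd3, Crot, Acox3 and Scp2. Without it the log2 fold changes of Abcd3, Acad11 and Scp2 were -0.13, 0.54 and 0.60.

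Over both compartments, 6 mitochondrial and 6 peroxisomal members were higher in every CD44 KO library than in every wild type library, where 19.7% of all tested genes were, and 4 mitochondrial and 0 peroxisomal members were lower, where 18.1% were. CD44 KO replicate 1 and wild type replicate 1 had like macrophage sums, while their adipocyte sums were 51951 and 37523 CPM. They can also be set side by side as single libraries with no test. There 8 mitochondrial members were higher and 14 lower in the CD44 KO library, and 7 peroxisomal members were higher and 9 lower, with medians of -0.11 and -0.21 on the log2 scale. Over all genes tested, 7018 were higher and 6811 lower in that library, with a median of 0.0081. In that pair Cpt1b was 5.23 times lower and Phyh 1.64 times higher in the CD44 KO library, Cpt1a was 1.17 times lower and Echs1 1.31 times higher. Shifts larger than those of Cpt1a and Echs1 were also seen in Acaa1b, Ehhadh and Hadhb, at 2.20, 1.71 and 1.56 times lower. The same holds for Acadl, Etfb, Decr1, Acaa2, Hsd17b4 and Hacl1, at 1.33 to 1.44 times lower. Ehhadh had a positive log2 fold change over all libraries (0.70).

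The start regions of 32 of the 39 members were in RefSeq's table for GRCm38.p6, in 36 windows of 300 bases (250 before the start and 50 after). The windows below are shown because Hadha and Hadhb stand head to head and had near-equal log2 fold changes, and because Cpt1a, Phyh and Echs1 had the lowest and the highest log2 fold changes among members that have a window and an element bound by nuclear receptors. The 85 bases between the gene models of Hadha and Hadhb make their windows share 228 bases. Capitals mark GGGCGG or its complement CCGCCC (the GC box) in the Hadhb window on the plus strand of chr5:30155003-30155302, where 4 copies begin 90 and 25 bases before and 10 and 24 bases after the start.
Hadhb: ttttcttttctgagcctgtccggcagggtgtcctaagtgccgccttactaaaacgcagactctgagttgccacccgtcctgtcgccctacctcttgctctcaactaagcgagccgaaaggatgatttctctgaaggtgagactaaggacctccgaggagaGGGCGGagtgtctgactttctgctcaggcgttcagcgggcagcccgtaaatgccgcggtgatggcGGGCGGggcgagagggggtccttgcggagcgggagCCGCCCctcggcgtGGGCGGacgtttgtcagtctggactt
In the Cpt1a window (plus strand, chr19:3323051-3323350), the Phyh window (plus strand, chr2:4918746-4919045) and the Echs1 window (minus strand, chr7:140116372-140116671), capitals mark AGGTCA or its complement TGACCT, the core element of nuclear receptors, which begins 94 bases before, 36 after and 83 before the start.
Cpt1a: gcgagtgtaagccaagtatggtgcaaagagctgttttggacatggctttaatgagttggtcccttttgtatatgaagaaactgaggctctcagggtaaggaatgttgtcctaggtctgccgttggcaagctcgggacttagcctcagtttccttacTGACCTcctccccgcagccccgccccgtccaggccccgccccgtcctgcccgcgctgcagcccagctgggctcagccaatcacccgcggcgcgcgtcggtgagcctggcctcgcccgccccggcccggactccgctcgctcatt
Phyh: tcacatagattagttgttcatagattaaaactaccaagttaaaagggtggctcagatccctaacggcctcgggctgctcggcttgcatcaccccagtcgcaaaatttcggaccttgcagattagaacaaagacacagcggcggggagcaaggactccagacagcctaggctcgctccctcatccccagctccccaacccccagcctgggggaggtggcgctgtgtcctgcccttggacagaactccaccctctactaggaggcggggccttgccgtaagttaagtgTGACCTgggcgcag
Echs1: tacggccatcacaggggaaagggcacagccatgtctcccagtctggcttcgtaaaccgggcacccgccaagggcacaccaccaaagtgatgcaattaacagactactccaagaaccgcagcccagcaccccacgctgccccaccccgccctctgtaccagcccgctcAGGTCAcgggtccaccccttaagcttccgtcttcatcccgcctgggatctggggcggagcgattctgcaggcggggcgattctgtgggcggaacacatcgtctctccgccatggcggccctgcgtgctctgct
On either strand AGGTCA was in 7 of the 36 member windows (19.4%) and in 16.3% of all 32851 windows. A pair of AGGTCA with any 1 base between them, the element of PPAR with RXR, was in 0 member windows and in 0.0396% of all windows, and TCAAGGTCA, the element of ERR receptors that holds AGGTCA, in 0 and in 0.423%. The NRF1 element, GCGC and TGCGC with any 1 base between them, was in 4 (11.1%), those of Abcd3, Acad10, Etfb and Etfdh, and in 4.6% of all. The GC box was in 25 member windows (69.4%) and in 35.7% of all, CCAAT in 17 (47.2%) and in 37.4%, and TATAAA in 0 and in 13.6%. The median GC content was 59.5% in member windows and 52.7% in all windows. A match is a run of letters in these windows and no site of binding.

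Lists of genes around the pathway were read from the same fit, which called 1.74% of all genes higher and 0.882% lower. Of 17 tested regulators of oxidation, edgeR called 1 higher and 0 lower, all 17 log2 fold changes were positive, and their median was 0.77, against 0.03 over all genes tested. The 1 was Ppargc1a, the coactivator that promotes mitochondrial biogenesis, at 5.78 ± 1.65 CPM in CD44 KO and 1.22 ± 0.314 CPM in wild type (SD, n = 3 each; log2 fold change 2.24, SE 0.39, edgeR adjusted p 0.0438). Ppara, the nuclear receptor that drives many of these enzymes in liver, stood at 3.67 ± 0.994 CPM in CD44 KO and 1.25 ± 0.606 CPM in wild type (1.55, edgeR adjusted p 0.0993). Klf15, Nrip1 and Rxra, a transcription factor, a corepressor and the partner of PPAR receptors, had 2.36, 1.27 and 0.77 (edgeR adjusted p 0.0776, 0.0779 and 0.0875).

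Of 17 tested genes for uptake, activation and malonyl-CoA control, 1 rose and 0 fell, with a median of 0.13. The 1 was Acacb, whose acetyl-CoA carboxylase makes malonyl-CoA at mitochondria, at 266 ± 93.1 CPM in CD44 KO and 45.6 ± 9.92 CPM in wild type (log2 fold change 2.54, SE 0.34, edgeR adjusted p 0.0309). Its cytosolic counterpart Acaca, the acyl-CoA synthetase gene Acsl5 and the transporter and synthetase gene Slc27a2 had 1.36, -0.77 and 4.86 (edgeR adjusted p 0.0594, 0.0533 and 0.055). The value of Slc27a2 rests on 33, 114 and 48 counts in CD44 KO, against 4, 3 and 0 in wild type. Its highest count was in CD44 KO replicate 2, the library with epididymis transcripts. Slc25a20, the carnitine carrier between Cpt1 and Cpt2, had -0.22 (edgeR adjusted p 0.475).

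Of 18 tested auxiliary mitochondrial genes 2 rose and 0 fell, with a median of 0.71. Among them was Acot2, a mitochondrial thioesterase with close paralogs, whose expected counts were not whole, so that its reads may have been split. It stood at 34.7 ± 6.45 CPM in CD44 KO and 11.97 ± 1.79 CPM in wild type (log2 fold change 1.53, edgeR adjusted p 0.0314). Ivd, the leucine pathway dehydrogenase that uses the same electron carrier, and the uncoupling protein gene Ucp2 had 1.91 and -1.87 (edgeR adjusted p 0.0629 and 0.0638). Of 34 other tested peroxisomal genes 1 rose and 0 fell, with a median of 0.35. This was Acot4, a peroxisomal thioesterase with close paralogs, at 29.5 ± 9.13 CPM in CD44 KO and 5.46 ± 0.286 CPM in wild type (2.43, SE 0.25, edgeR adjusted p 0.0241). Its paralog Acot6, the peroxin gene Pex6 and the polyamine oxidase gene Paox had 1.59, 1.08 and 0.82 (edgeR adjusted p 0.0557, 0.0522 and 0.065), and catalase (Cat) had 0.35 (0.296). Of 34 tested nuclear genes of the respiratory chain 0 were called by edgeR (7 higher and 0 lower at an unadjusted p under 0.05, where 16.3% of all genes were higher and 14.7% lower), with a median of 0.33. Among the 12 adipocyte markers 1 rose, with a median of 1.57, while Lep was lower in every CD44 KO library (-1.75, edgeR adjusted p 0.0682). That list's summed level moved with these groups. So did that of 7 mesothelial markers (none at 0), at 70.3, 254 and 42.1 CPM in CD44 KO replicates 1 to 3 and 5.17 to 12.9 CPM in wild type. The 254 CPM was in CD44 KO replicate 2, the library with epididymis transcripts. The part of adipocyte and mesothelial content in these results was not tested. These 5 calls depended on which libraries were in the fit. In the 4 pathway lists edgeR called 15 genes higher and 5 lower when CD44 KO replicate 1 was left out, in the fit that called 7.13% of all genes higher and 9.65% lower. It called 7 higher when wild type replicate 1 was left out, 1 higher when CD44 KO replicate 2 was, and 0 after removal of CD44 KO replicate 3, wild type replicate 2 or wild type replicate 3.

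In the authors' deposited table, 4 members had an adjusted p under 0.05 and a higher level (Phyh, Acad10, Echs1 and Abcd2), and 3 had a lower one (Cpt1a, Cpt1b and Hadha). By the same rule 6.07% of all genes were higher and 5.94% lower in the authors' deposited table. For Cpt1b the authors' deposited table gives a log2 fold change of -2.63, which rests on the same split of reads.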

How the data were processed

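RNA was sequenced from epididymal fat of 3 CD44 KO and 3 wild type libraries, grouped by the genotype in the labels. Per the submitters' processing notes, HISAT2, StringTie 1.3.1, RSEM and DESeq2 were used, with no role stated, and no source used here gives the genome build or annotation. The authors deposited expected counts per gene, which are estimated and not scaled (7.57% to 8.3% of a library's values were not whole), and FPKM, scaled by the authors for length and depth. A comparison table deposited by the authors repeats the counts rounded to whole numbers together with p-values, adjusted p-values and log2 fold changes.

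Expected counts were rounded and tested across all genes with edgeR 4.0.16 in R 4.3.3 (filterByExpr, TMM, robust quasi-likelihood F-test, Benjamini-Hochberg adjustment over 13829 genes, threshold 0.05). SE is the absolute log2 fold change over the root of F, and 95% intervals use 4 residual degrees of freedom, so that an interval and a moderated p can differ. CPM are TMM-scaled, and errors are SD. Alternatives used DESeq2 1.42.0, limma 3.58.1 on log2(FPKM + 1), other scalings, no filter, the replicate number as a block and each library left out. All 39 members matched GENCODE M21 (GRCm38) by identifier, as did 22267 of all 22322 genes. Of the related pathway lists, genes past the threshold, the 4 of lowest p and 5 genes fixed by name are named, except 1 gene that is not reported here. The members and lists were chosen with earlier results of these data known.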

Additional observations from a re-analysis of the deposited data

How the results depend on the processing

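Member log2 fold changes kept their direction in all alternatives for 28 of the 38 tested members. Of the other 10, Acox3 was at -0.22 and -0.23 in limma on log2(FPKM + 1) and log2(FPKM + 0.1) and at -0.048 with the replicate block, and Hacl1 at -0.033 in both limma fits. Leaving out 1 library in turn gave ranges that span 0 for Acox3 (-0.66 to 0.53), Hacl1 (-0.22 to 0.37), Abcd3 (-0.13 to 0.19), Acaa1a (-0.044 to 0.31), Acaa2 (-0.32 to 0.033), Acadm (-0.14 to 0.23), Crot (-0.13 to 0.45), Decr1 (-0.33 to 0.20), Etfb (-0.17 to 0.49) and Pex7 (-0.041 to 0.18). The median of the mitochondrial members was -0.0082 to 0.51 over these fits, the highest without wild type replicate 1, and that of the peroxisomal members 0.20 to 0.42, and 0.10 in both limma fits. Without the members found in more than 1 compartment the medians were 0.04 and 0.21.

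Mitochondrial members called higher numbered 0 to 1 and lower 0 to 2 over the fits that each left out 1 library, and peroxisomal members called higher 0 to 1. DESeq2 called 2 mitochondrial members higher and 3 lower and 4 peroxisomal members higher, and limma on log2(FPKM + 0.1) called 1 peroxisomal member higher. With Cpt1b and Gm44502 summed, which was chosen after seeing the data, 0 mitochondrial members were lower. Over all genes, 240 were higher and 122 lower. These counts were 145 higher without a filter, 1463 and 1463 by DESeq2, 203 and 206 lower by limma with pseudocounts of 1 and 0.1, and 0 to 1007 higher and 0 to 1363 lower without 1 library in turn. In the 4 related pathway lists 5 were higher and 0 lower, with 24 and 4 by DESeq2, 1 and 2 lower by limma with pseudocounts of 1 and 0.1, and 0 to 15 higher and 0 to 5 lower without 1 library in turn. The cause of these shifts was not tested.

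With the replicate number of the labels as a block, 0 genes were called higher and 0 lower over all genes, as were 0 mitochondrial members lower and 0 related genes higher, and Cd44 stood at -7.17 (edgeR adjusted p 0.0543). Libraries that share a number did not deviate together (correlations of -0.32, -0.22 and -0.02 across genes), and pairs with different numbers ran from -0.18 to 0.29. With 3 libraries per group that also differed in cell markers, these correlations cannot settle whether the libraries were paired. Cd44 was at -7.58 to -6.75 without 1 library in turn and lost its call without CD44 KO replicate 3 or wild type replicate 3 (adjusted p 0.0785 and 0.122). Upper-quartile scaling shifted the median of all genes by 0.07. Depth limits Cpt1b, with 13.1 expected counts in its lowest library, and Acox2.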
